A study of Mus musculus with 18 samples.

Results

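The features described here are the mouse miRNA hairpins mmu-mir-3096a and mmu-mir-3096b (mir-3096a and mir-3096b below) and their 4 mature arms, miR-3096a-5p, miR-3096a-3p, miR-3096b-5p and miR-3096b-3p. They were found by name as 6 of the 2134 features listed for every sample, that is, 2 of the 855 hairpins and 4 of the 1279 mature miRNAs. These names had been selected on the levels of both hairpins, which were higher after CBD than in the control, so the values of CBD against control are given below as a description with no test. All 6 passed the filter of at least 10 reads over the 18 samples, which left 1363 features for testing.

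Small RNA was sequenced from BV-2 cells, an immortalized mouse microglial line, in 6 groups of 3 samples numbered 22 to 39. The groups were untreated control (samples 22, 28 and 34), cannabidiol (CBD; 24, 30 and 36), Δ9-tetrahydrocannabinol (THC; 25, 31 and 37), lipopolysaccharide (LPS; 23, 29 and 35), CBD with LPS (26, 32 and 38) and THC with LPS (27, 33 and 39). By the study's methods each cannabinoid was given at 10 μM for 6 h in all, LPS at 100 ng/ml for 4 h, and the cannabinoid 2 h ahead of LPS where they were combined. All samples come from 1 cell line in culture, and the sources used here do not say whether the 3 samples of a group are separate cultures, so p-values measure the spread between these samples, which may be technical.

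Canonical miRNAs are cut from a hairpin precursor by Drosha and Dicer, and the short mature arms then guide Argonaute to target mRNAs. C/D box small nucleolar RNAs (snoRNAs) are another class of short RNA, which guide the methylation of ribosomal RNA, are mostly released from introns, and are recognized by a C box near the start and a D box near the end. Some entries of the miRNA catalogue have the sequence of a snoRNA, and reads of such an entry may come from the snoRNA itself. LPS activates microglia through Toll-like receptor 4, and CBD and THC are plant cannabinoids that share a molecular formula and differ in ring closure.

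In the GENCODE M21 annotation of the genome build GRCm38 the gene Mir3096 is typed as a snoRNA. It lies on the minus strand at chr5:23710991-23711061, 71 bases long, in an intron of the processed transcript AI506816. The snoRNA gene Snord93, also of 71 bases, lies on the plus strand at chr5:23852210-23852280 in an intron of the lincRNA 2700038G22Rik, with 141148 bases between both genes. The sequence of Mir3096 is shown because it bears the name of these entries, and that of Snord93 because it is close to Mir3096. Mir5117 is shown because its hairpin entry had the levels most like those of mir-3096a and mir-3096b over the samples. Mir5117 is typed as a snoRNA too and lies on the plus strand at chr1:161037356-161037439, 84 bases long, over an exon of transcripts of Gas5, a host gene of snoRNAs. In the GENCODE transcripts, read 5′ to 3′, capitals mark the letters GATGA, which are the core of the C box, and CTGA, which are the D box.
Mir3096: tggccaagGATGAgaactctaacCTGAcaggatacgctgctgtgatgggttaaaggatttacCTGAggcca
Snord93: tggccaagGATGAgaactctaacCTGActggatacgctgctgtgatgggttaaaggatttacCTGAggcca
Mir5117: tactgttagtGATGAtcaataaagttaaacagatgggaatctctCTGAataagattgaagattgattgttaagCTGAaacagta

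Mir3096 and Snord93 were identical at 70 of 71 positions. The difference was A29T, counted from 1 at the 5′ end with the base of Mir3096 first. In both, GATGA began at position 9 and CTGA at positions 24 and 63, and the first and last 5 bases could pair with each other. In Mir5117, GATGA began at position 11 and CTGA at positions 45 and 74. Neither pair of motifs was complete on the reverse strand of these genes. Among all GENCODE snoRNA and scaRNA transcripts of 71 bases, 10 of 14 (71.4%) held GATGA in the first 20 bases and CTGA in the last 15. Mir3096 and Snord93 are themselves among these 10, so the count is not independent of them. Of the RefSeq miRNA hairpins of that length, 0 of 18 held both. A match of these letters is a description and not a functional site. The tables used here do not say whether Mir3096 is the entry a or the entry b. Nor do they say whether the other entry is Snord93, and the sequences of both entries were not available. Both genes differ by 1 base, so a short read can often be placed on either gene. If the entries differ as little, the division of reads between mir-3096a and mir-3096b is uncertain.

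The samples held between 442718 and 1057147 reads on the listed features, so that 3 reads were worth between 2.98 and 6.38 CPM (read counts scaled to a common library size), for counting error alone. The samples numbered 22 to 27, 1 of each group, stood apart in each group but the control. Outside the control, chi-square per degree of freedom against another sample of the group was between 53.1 and 122.5 for them. For pairs of samples 28 to 39 it was between 3.48 and 11.6 there. In the control it was 121.7 and 66.6 for sample 22 against samples 28 and 34, and 64.0 between samples 28 and 34. The entries mir-6236, mir-6243 and mir-6240, which resemble ribosomal RNA, took a share of reads that ranged from 0.151% to 4.55%, which was below 1% in 4 samples (control 22, CBD 30, CBD 36 and THC with LPS 27). As for the label of the cells, all 7 fixed microglial and myeloid miRNAs had a median above the floor, such as miR-146a-5p at a median of 8440.2 CPM and miR-223-3p at 132 CPM. The highest of the 7 was miR-191-5p, at a median of 69202 CPM. The paper used miR-191-5p as a stable reference, so the summed level of the 7 is not specific to microglia. That sum was between 87572 and 123941 CPM with CBD and between 91762 and 106207 CPM in the control. Of 12 fixed miRNAs of other cell types, 6 had a median above the floor. They were miR-141-3p (7678 CPM) and miR-200c-3p (11.1 CPM) of epithelium, miR-128-3p (465 CPM) and miR-9-5p (9.8 CPM) of neurons, miR-126-3p of endothelium (103 CPM) and miR-338-3p of oligodendrocytes (67.6 CPM). The median was 0 for miR-124-3p of neurons, miR-1a-3p, miR-133a-3p and miR-206-3p of muscle and miR-122-5p of liver, and 3.21 CPM for miR-219-5p of oligodendrocytes. The summed level of these 12 was between 7126 and 8410.1 CPM with CBD and between 7238 and 8792 CPM in the control, and its part in the results below was not tested.

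The hairpin mir-3096b had more reads than any other of the 6 features, with 33669 over all samples, followed by the mature arm miR-3096b-3p with 29605 and the hairpin mir-3096a with 11560. The other arms were low, at 1955 reads for miR-3096b-5p, 774 for miR-3096a-5p and 260 for miR-3096a-3p. Reads on a hairpin entry were thus more frequent here than for most miRNAs. Over 192 miRNA names with at least 1000 reads, the hairpin took a median of 3.68% of hairpin and mature reads, with quartiles at 1.10% and 27.2%. For mir-3096a this share was 91.8% and for mir-3096b 51.6%, ranks 23 and 37 of the 192 names, and 38 names lay over 50%. How reads that match both a hairpin and its arm were counted is not given in the sources used here.

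The hairpin mir-3096b measured 2261, 2208 and 2389 CPM in the control samples 22, 28 and 34, a mean of 2286 ± 93.0 (SD, n = 3). After CBD it measured 3536, 5434 and 4912 CPM in samples 24, 30 and 36, a mean of 4628 ± 980.4 (SD, n = 3). Each CBD sample lay above each control sample, and CBD sample 24 was the lowest of its group. The fitted log2 fold change of CBD against control was 0.99 with a standard error of 0.17, or 1.99-fold on the scale of CPM + 1 with a 95% interval from 1.56 to 2.54.

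The hairpin mir-3096a followed the same order at a lower level in CPM. It measured 749, 771 and 837 CPM in the control samples (785 ± 45.7; SD, n = 3) and 1077, 1619 and 1551 CPM after CBD (1415 ± 295; SD, n = 3). The groups did not overlap, and sample 24 was again the lowest with CBD. The log2 fold change was 0.83 with a standard error of 0.19, or 1.77-fold with an interval from 1.35 to 2.33. Of the 6 features these were the 2 that were higher without overlap, where 6.9% of all tested features were. Nothing is read from this count, since this contrast chose the features. In this count and those below, both hairpins may share reads and are not 2 independent cases. Among the 1363 features ordered by log2 fold change from the highest, mir-3096b stood at rank 97 and mir-3096a at rank 130. Within samples 28 to 39 the log2 fold changes were 1.17 for mir-3096b and 0.98 for mir-3096a, and with the level of the rRNA-like entries as a covariate they were 0.88 and 0.71. The share of the rRNA-like entries was 0.160% and 0.151% in CBD 30 and 36, where mir-3096b was at 5434 and 4912 CPM, and 0.204% and 0.361% in control 22 and THC with LPS 27, where it was at 2261 and 2439.6 CPM.

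**Figure D1:**
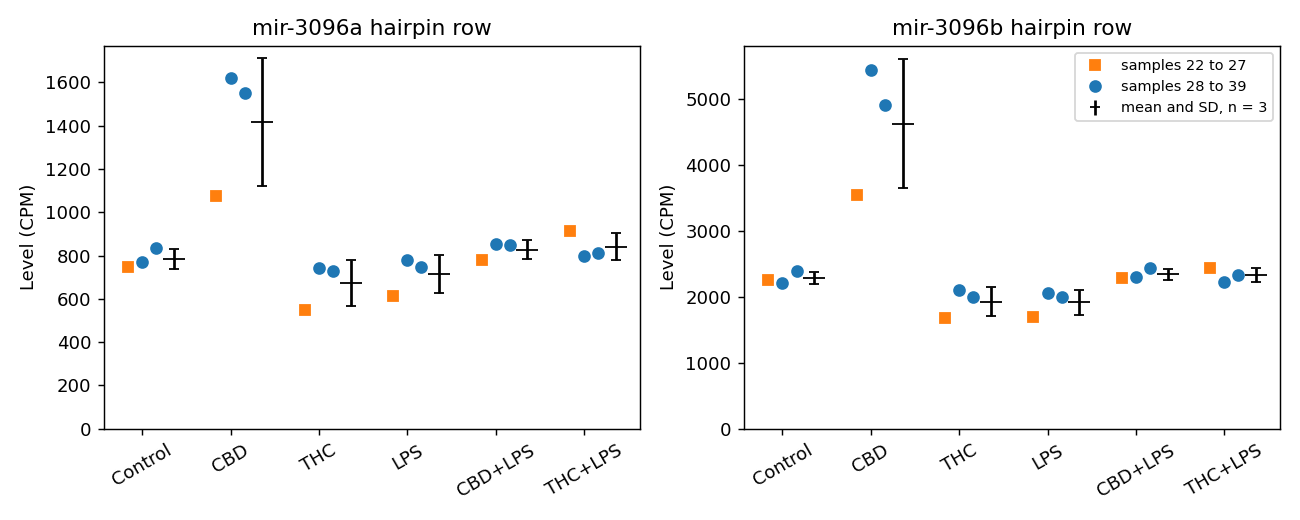
Level of the hairpins mir-3096a (left) and mir-3096b (right) in CPM for each sample by treatment, with orange squares for samples 22 to 27, blue circles for samples 28 to 39, and a bar for the mean and SD of 3 samples. The CBD samples sit at 1077 to 1619 CPM and 3536 to 5434 CPM, above the 15 other samples of each hairpin.

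The CBD samples were also above the samples of all other treatments. Over the 15 samples without CBD alone, mir-3096a lay between 549.9 and 913 CPM and mir-3096b between 1674 and 2439.6 CPM. All 3 CBD samples exceeded all 15 others in 20 of the 1363 features (1.47%), among them both hairpins and none of the 4 mature arms. These values include those that chose the features and carry no test.

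With THC, mir-3096b measured 1674, 2098 and 1999 CPM (1924 ± 222; SD, n = 3) and mir-3096a 549.9, 744 and 727 CPM (673 ± 107; SD, n = 3). Each THC sample lay below each control sample for both hairpins. For mir-3096a the closest were 744 CPM with THC and 749 CPM in the control. These hairpins were 2 of the 6 features, where 3.01% of all features were lower without overlap. The log2 fold changes against control were -0.25 (SE 0.17) for mir-3096b and -0.23 (SE 0.19) for mir-3096a, and without THC sample 25 they were -0.16 and -0.094. With the 2 cannabinoids set side by side at the same dose and time, CBD exceeded THC by 1.25 (SE 0.17) on the log2 scale for mir-3096b and by 1.06 (SE 0.19) for mir-3096a. CBD also exceeded THC in miR-3096a-5p by 1.24 (SE 0.42), miR-3096b-5p by 0.89 (SE 0.43) and miR-3096a-3p by 0.56 (SE 0.38). In miR-3096b-3p the value was -0.31 (SE 0.24). That comparison uses the CBD samples that chose the features and is a description.

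LPS alone gave 1699, 2056 and 1989.8 CPM of mir-3096b (1915 ± 190.1; SD, n = 3) and 615, 778 and 748 CPM of mir-3096a (714 ± 87.1; SD, n = 3). For mir-3096b the LPS samples lay below all control samples, and for mir-3096a sample 29 lay within the control range. The log2 fold changes were -0.26 (SE 0.17) and -0.14 (SE 0.19), and without LPS sample 23 they were -0.18 and -0.040. The features lower without overlap were mir-3096b and miR-3096a-5p, 2 of 6 where 3.82% of all features were. The size of this difference depended on the scaling, since the median of all features was 0.11 with the deposited factors and -0.02 by library size alone. By library size alone the values were -0.42 for mir-3096b and -0.30 for mir-3096a.

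Whether CBD acted in the same way on LPS-activated cells is asked by CBD with LPS against LPS, whose samples did not choose the features. With CBD and LPS, mir-3096b measured 2286, 2302 and 2432 CPM (2339.8 ± 79.9; SD, n = 3) and mir-3096a 777, 855 and 851 CPM (828 ± 43.9; SD, n = 3). All 3 samples lay above all LPS samples for mir-3096b, while for mir-3096a sample 26 at 777 CPM lay just below LPS sample 29 at 778 CPM. The log2 fold changes were 0.29 (95% interval from -0.06 to 0.64) for mir-3096b and 0.22 (-0.17 to 0.61) for mir-3096a. Neither hairpin passed the test, with an adjusted p of 1 for both by limma with Benjamini-Hochberg adjustment over 1363 features.

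In CBD with LPS against LPS none of the 6 features reached the threshold, an adjusted p of 0.1 or less by limma. No feature at all was called there (0%), with 44 at an unadjusted p under 0.05 by limma and 49 by edgeR, and DESeq2 called 1 feature at the same adjusted threshold. The features higher without overlap were mir-3096b and miR-3096b-5p, 2 of 6 where 3.45% of all features were. Within samples 28 to 39 the log2 fold changes were 0.23 for mir-3096b and 0.16 for mir-3096a, and without LPS sample 23 alone the value for mir-3096a was 0.12.

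THC with LPS gave nearly the same levels as CBD with LPS. The hairpin mir-3096b measured 2439.6, 2226 and 2325 CPM (2330.2 ± 107; SD, n = 3) and mir-3096a 913, 797 and 814 CPM (841 ± 63.0; SD, n = 3). Each of these samples lay above each LPS sample for both hairpins. Against LPS the log2 fold changes were 0.29 (-0.06 to 0.64) for mir-3096b and 0.24 (-0.15 to 0.63) for mir-3096a, with an adjusted p of 1 for both by limma. None of the 6 features was called, as was none of all features (0%), with 32 at an unadjusted p under 0.05 by limma. The features higher without overlap were both hairpins and miR-3096b-5p, 3 of 6 where 2.57% of all features were. Within samples 28 to 39 the log2 fold changes were 0.17 for mir-3096b and 0.08 for mir-3096a, and without LPS sample 23 alone the value for mir-3096a was 0.14.

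Compared directly at the matched dose and time, CBD with LPS and THC with LPS differed by 0.01 (-0.34 to 0.36) on the log2 scale for mir-3096b and by -0.02 (-0.41 to 0.37) for mir-3096a. None of the 6 features was called and none was free of overlap, where 0% of all features were called by limma, 36 had an unadjusted p under 0.05, and 6.53% did not overlap in either direction. The intervals leave room for differences of up to 0.41 in size, and the sign of the value for mir-3096a changed with the scaling.

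Set side by side, the log2 difference made by CBD for mir-3096b was 0.99 without LPS and 0.29 with LPS, a difference of -0.70 (SE 0.23, 95% interval from -1.20 to -0.21). For mir-3096a the same difference was -0.61 (SE 0.26, interval from -1.16 to -0.05). These values rest on the samples that chose the features and carry no test. Of all features 0.88% were higher with CBD without overlap both without and with LPS, mir-3096b among them and mir-3096a not, and 0.367% had opposite CBD differences, with neither hairpin among them. For THC 0.293% had opposite differences, both mir-3096 hairpins and mir-5117 included. Within samples 28 to 39 the CBD by LPS values were -0.94 for mir-3096b and -0.82 for mir-3096a. Against the control, CBD with LPS stood at 0.03 for mir-3096b and 0.08 for mir-3096a, and THC with LPS at 0.03 and 0.10.

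**Figure D2:**
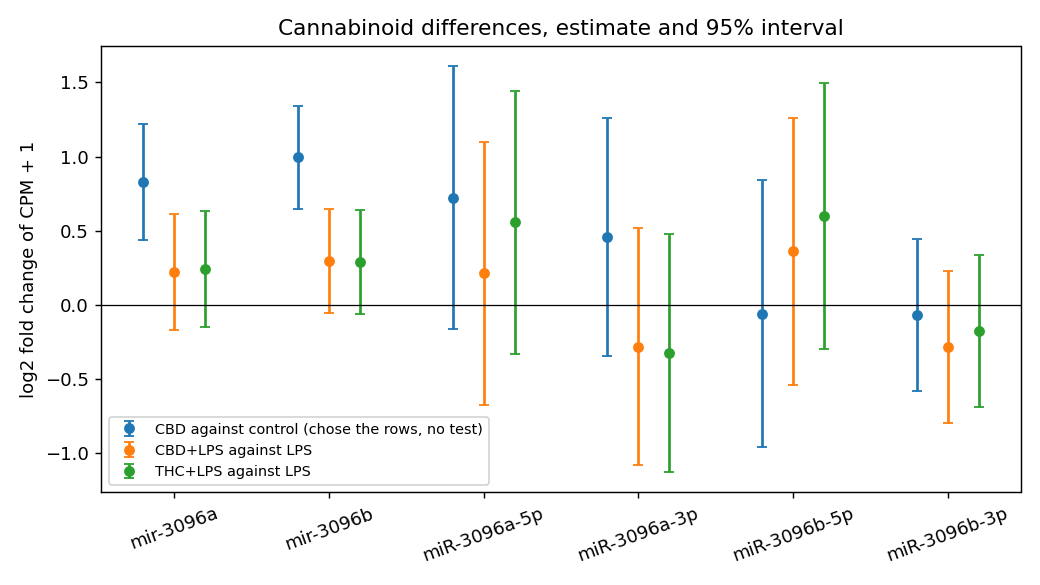
Log2 fold change of CPM + 1 with its 95% interval for the 6 features, for CBD against control (blue), CBD with LPS against LPS (orange) and THC with LPS against LPS (green). The blue intervals of both hairpins lie above 0, at 0.83 and 0.99, while all orange and green intervals include 0.

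The mature arms, the products that a miRNA hairpin would yield, did not set the CBD samples above all others as the hairpins did. The most abundant arm, miR-3096b-3p, measured 1909.8, 2161 and 1694 CPM in the control and 1619, 1909.7 and 1957 CPM with CBD. Both groups overlapped, with a log2 fold change of -0.07 (SE 0.24) where its own hairpin had 0.99. With LPS it measured 2073, 2722 and 2773 CPM, with CBD and LPS 1498, 2447 and 2366 CPM, and with THC and LPS 1736, 2572 and 2432 CPM. The samples numbered 23, 26 and 27 were the lowest of their groups. The log2 fold change against LPS was -0.28 (-0.80 to 0.23) for CBD and -0.18 (-0.69 to 0.34) for THC, each with an adjusted p of 1 by limma. Without sample 26 the value for CBD was -0.056, and without sample 27 that for THC was 5.4e-06. With THC alone it measured 1576, 2502 and 2904 CPM, the widest range of the 6 groups. Over the 18 samples, Pearson's r of log2(CPM + 1) was 0.98 between both hairpins, -0.27 between mir-3096b and miR-3096b-3p and -0.16 between mir-3096a and miR-3096b-3p, values that share their libraries and scaling factors.

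**Figure D3:**
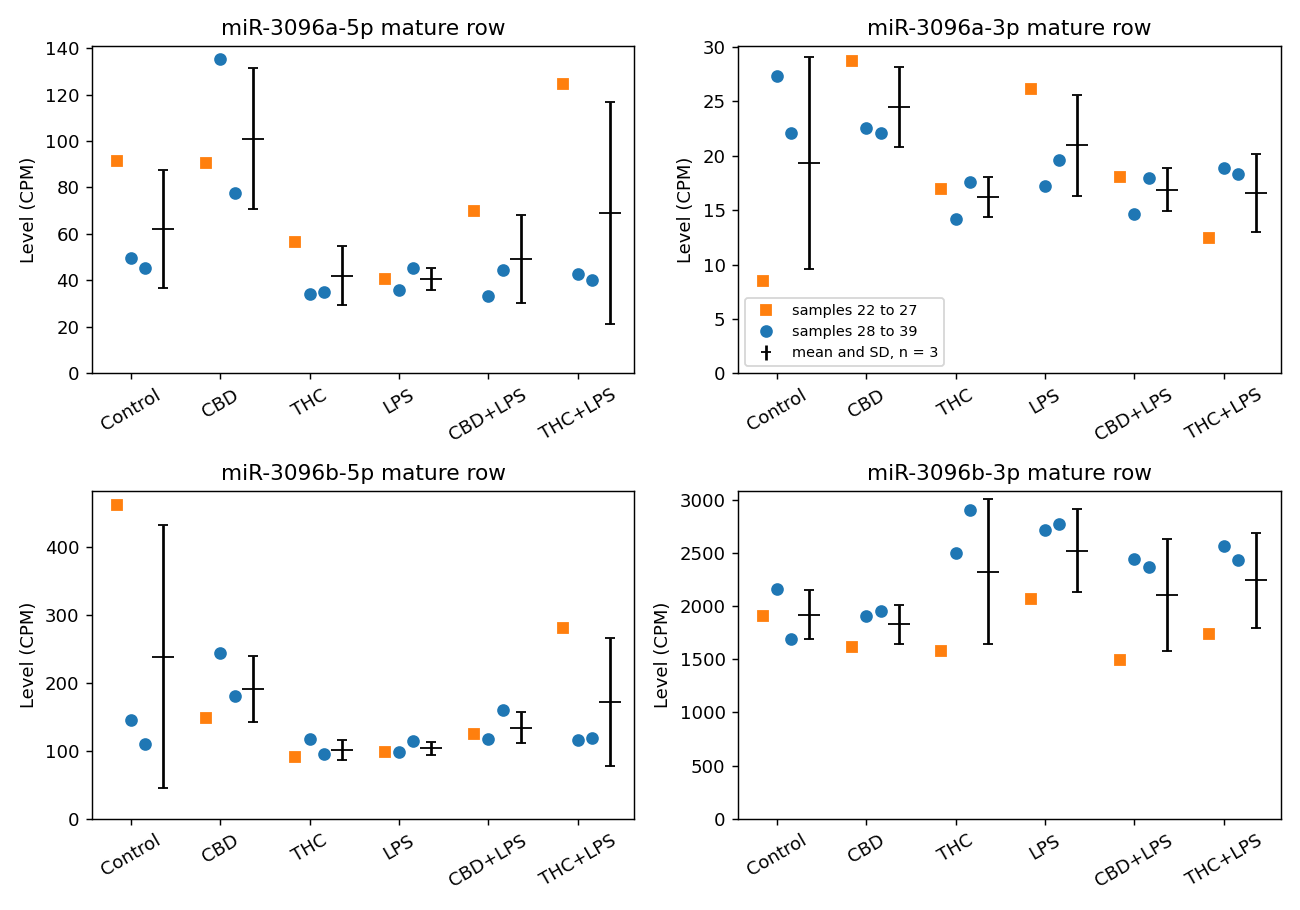
Level of the 4 mature arms in CPM for each sample by treatment, with orange squares for samples 22 to 27, blue circles for samples 28 to 39, and a bar for the mean and SD of 3 samples. CBD and control overlap in each arm, and control 22 stands at 461 CPM in miR-3096b-5p.

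The arm miR-3096b-5p was lower and less even. It measured 461, 145 and 109.5 CPM in the control and 148, 244 and 180.2 CPM with CBD, so that the control sample 22 was the highest of all 18 and the groups overlapped. The log2 fold change of CBD against control was -0.06 (SE 0.43). It measured 90.5, 118 and 94.6 CPM with THC, 98.1, 98.0 and 114 CPM with LPS, 125, 117 and 159.5 CPM with CBD and LPS, and 281, 116 and 118 CPM with THC and LPS. The 4 samples with under 1% of reads on the rRNA-like entries had the 4 highest levels of this arm, at 180.2 CPM or more, against at most 159.5 CPM in the other 14. These 4 also held between 442718 and 660003 reads. The part of that composition or depth in the levels was not tested. Against LPS the log2 fold changes were 0.36 (-0.54 to 1.26) for CBD and 0.60 (-0.30 to 1.5) for THC, with an adjusted p of 1 by limma for both. Without sample 27 the value for THC was 0.18, and without sample 38 that for CBD was 0.23.

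The 5p arm of mir-3096a measured 91.4, 49.6 and 45.4 CPM in the control and 90.3, 135 and 77.4 CPM with CBD. The log2 fold change was 0.72 (SE 0.42), and the groups overlapped through control sample 22. With THC it was at 56.7, 34.2 and 35.1 CPM, with LPS at 40.5, 35.7 and 45.3 CPM, with CBD and LPS at 69.9, 33.2 and 44.4 CPM and with THC and LPS at 124, 42.6 and 40.1 CPM. The high values of samples 22, 26 and 27 set the spread of their groups. The log2 fold changes against LPS were 0.21 (-0.67 to 1.10) for CBD and 0.56 (-0.33 to 1.44) for THC, and without sample 27 the value for THC was 0.033. Without sample 26 the value for CBD was -0.070. The arm miR-3096a-3p lay between 8.51 and 28.7 CPM, with 4 to 20 reads in a sample, so its differences between treatments rest on few reads. It measured 8.51 to 27.4 CPM in the control, 22.1 to 28.7 CPM with CBD and 14.2 to 17.6 CPM with THC. Its log2 fold changes against LPS were -0.28 (-1.08 to 0.52) for CBD and -0.33 (-1.13 to 0.48) for THC, which moved to -0.12 without sample 23 and to -0.14 without sample 27.

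Hairpin reads per mature read, a ratio within each sample that no scaling factor touches, summed both hairpins and all 4 arms. It was 1.22, 1.25 and 1.72 in the control and 2.45, 3.05 and 2.89 with CBD. The CBD samples lay above all others, and the difference of the mean log2 ratio, 1.01, is a description because the hairpin levels chose the features. The ratio was 1.28, 1.07 and 0.893 with THC and 1.03, 0.987 and 0.927 with LPS, so that with LPS there was close to 1 hairpin read for each mature read.

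In the LPS-treated cells the ratio was 1.79, 1.21 and 1.27 with CBD and 1.56, 1.10 and 1.20 with THC. Each of these samples lay above each LPS sample. The mean log2 ratio was higher than with LPS alone by 0.51 for CBD and by 0.37 for THC, each with a 2-sided exact permutation p of 0.1, the smallest that 3 samples against 3 can give, and 0.15 after Benjamini-Hochberg adjustment over the 3 comparisons. This design cannot reach an exact p of 0.05. CBD with LPS and THC with LPS differed by 0.14 (exact permutation p = 0.5), and their samples overlapped. Without sample 26 the difference of CBD with LPS from LPS was 0.34 and without sample 27 that of THC with LPS was 0.23, each over 1.5 times smaller.

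**Figure D4:**
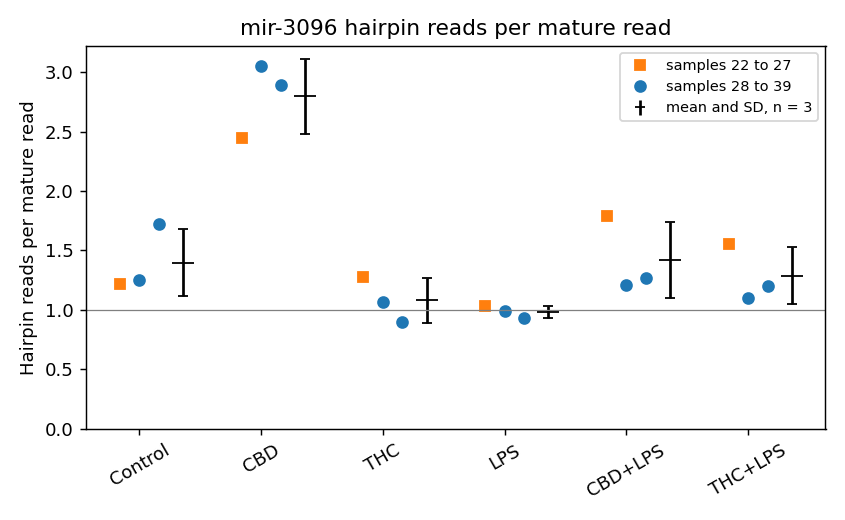
Reads on both mir-3096 hairpins per read on the 4 mature arms for each sample by treatment, with orange squares for samples 22 to 27, blue circles for samples 28 to 39, a bar for the mean and SD of 3 samples, and a grey line at 1. The CBD samples are at 2.45 to 3.05 and the LPS samples at 0.927 to 1.03.

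The 6 features together took 0.733%, 0.920% and 0.834% of all reads in the CBD samples and between 0.469% and 0.582% in the other 15. The reads on mir-3096a per read on mir-3096b were 0.305, 0.298 and 0.316 in the CBD samples, against 0.329 to 0.379 in the other 15 (median 0.354). The CBD samples thus had the 3 lowest values, while the 95% counting intervals of CBD samples 24 and 36, from 0.281 to 0.330 and from 0.294 to 0.339, included the lowest of the others. As shares of a library these levels do not separate more of these RNAs per cell from less of the other small RNAs, nor from a change in the number of cells that hold them.

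The features outside the family with the levels most like those of the hairpins were named by Pearson's r of log2(CPM + 1) over the 18 samples, as a description. For mir-3096a they were mir-5117 (0.92), mir-1900 (0.87), mir-3077 (0.79), miR-106b-5p (0.78) and miR-181b-5p (0.78). For mir-3096b they were mir-5117 (0.91), mir-3077 (0.83), mir-1900 (0.81), miR-1306-3p (0.77) and miR-181b-5p (0.76). The entry mir-3077 rested on 51 reads in all. The snoRNA entry mir-5117, whose sequence stands beside those of Mir3096 and Snord93 above, measured 1186 ± 62.4 CPM in the control, 1598 ± 51.0 with CBD and 957 ± 151 with THC (SD, n = 3 each). With LPS it measured 1019 ± 60.6 CPM, with CBD and LPS 1135 ± 67.7 and with THC and LPS 1214 ± 110.1 (SD, n = 3 each). Its CBD samples, too, were above the 15 others, by a smaller step. The log2 fold change of mir-5117 against control was 0.43 (SE 0.15). As mir-5117 was picked by its correlation over samples that include these, its likeness to the hairpins is a description with no test. The hairpin mir-1900 measured 296 ± 53.0 CPM in the control and 489 ± 52.2 with CBD (SD, n = 3 each).

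Whether other snoRNA-like hairpins had the same order as mir-3096a and mir-3096b was examined over a list made from the annotation. Of the 855 hairpins, 813 had a position. By name or by overlap on the same strand, 14 were matched to a snoRNA or scaRNA gene (scaRNAs are the related RNAs of Cajal bodies). They were both mir-3096 hairpins and 12 others, all of which were tested. Both mir-3096 hairpins were assigned to the gene Mir3096 by name, with the letter a or b left off, and not by position. With CBD against control 6 of the 12 were higher and 6 lower, with a median log2 fold change of -0.03 against 0.0017 over all features and -0.11 over all hairpins. By limma none of the 12 was called, where 0.514% of all features were. The ones higher without overlap were mir-5117 and mir-3069, which lies in Scarna13 and had a log2 fold change of 1.18 (SE 0.40; adjusted p = 0.286 by limma) on 351 reads, 2 of 12 where 6.9% of all features were higher without overlap. In this count and those below, mir-5117 had already been named by its correlation with the hairpins over these samples.

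In the LPS-treated cells, CBD gave 8 of the 12 higher and 4 lower, with a median of 0.16 against -0.05 over all features, and none was called. Those higher without overlap were mir-5117 at 0.16 and mir-677 at 0.30 (SE 0.22), 2 of 12 where 3.45% of all features were. THC gave 7 higher and 5 lower, with a median of 0.16 against -0.04 over all features. Without overlap mir-5117 and mir-677 were higher, 2 of 12 where 2.57% of all features were, and mir-1949 was lower, 1 of 12 where 4.62% were, and none was called. The other members with the most reads were mir-3084-2 in Snora19, mir-1843b in Scarna3a and mir-664 in Snora36b. Their log2 fold changes of CBD against control were -1.58 (SE 1.0), 0.07 (SE 0.55) and -0.30 (SE 0.66), and none passed the test. Among the 14 snoRNA-like hairpins, both mir-3096 entries and mir-5117 carried the most reads.

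**Figure D5:**
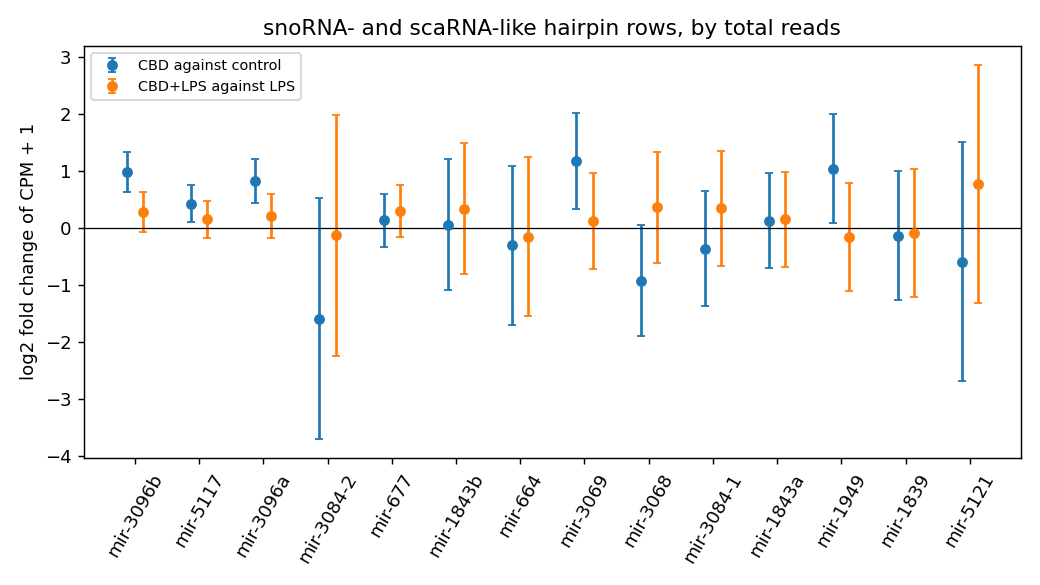
Log2 fold change of CPM + 1 with its 95% interval for the 14 snoRNA- and scaRNA-like hairpins in order of total reads, for CBD against control (blue) and CBD with LPS against LPS (orange). The blue points of mir-3096b, mir-5117 and mir-3096a lie at 0.99, 0.43 and 0.83, and those of the other 11 are spread from -1.58 to 1.18.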

How the data were processed

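By the study's methods, the authors aligned small RNA reads to the mouse hairpins and mature miRNAs of miRBase using BWA with a limit of 10 mappings for a read, and used edgeR. The version of BWA, the miRBase release used for the alignment, and whether a read with several mappings was counted on each, are not given in the sources used here. The deposited values are CPM scaled by edgeR's TMM factors. In 12 of the 18 samples the deposited CPM exceed the total of a plain CPM because the factor is below 1, and the unit was recorded there as a signal, although the authors' quantity is the same in each sample. Dividing by the value of 1 read gave whole reads for 100% of the values (tolerance 0.01), and TMM factors of those reads returned the deposited scale to a relative deviation of 4.86e-10. Intervals and floors cover counting error only, since PCR copies are not separate molecules.

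Values were transformed to log2(CPM + 1) and fitted with limma 3.58.1 (mean-variance trend, R 4.3.3) in a model of the 6 groups over 1363 features, with Benjamini-Hochberg adjustment over all of them and calls at an adjusted p of at most 0.1. Tests were 2-sided. Only contrasts among the LPS-treated groups were tested for the mir-3096 features. Alternatives included edgeR 4.0.16 and DESeq2 1.42.0 on the recovered reads, other scalings, filters and pseudocounts, samples 28 to 39 alone, and each sample left out. The fits were tested on simulated data. The members and lists were chosen with earlier results of these data known. Named beyond the 6 features were the 5 features outside the family with the highest correlation with each hairpin, and up to 6 of the snoRNA-like hairpins by reads. Positions and sequences come from GENCODE M21 on GRCm38. A hairpin was snoRNA-like where a gene of its name had that type, or where it overlapped such a gene on the same strand. Alignment to such a gene over at least 90% of its length at 90% identity also counted. For the mir-3096 hairpins alone, the letter a or b was left off the name.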

Additional observations from a re-analysis of the deposited data

Results flagged for a closer look

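The THC difference had opposite signs without and with LPS in both hairpins, with no overlap between the groups on either side. For mir-3096a the log2 fold change was -0.23 for THC against control and 0.24 for THC with LPS against LPS. For mir-3096b it was -0.25 and 0.29. Each THC sample lay below each control sample, and each sample with THC and LPS lay above each LPS sample. The difference between both contrasts, 0.48 (SE 0.26) for mir-3096a and 0.54 (SE 0.23) for mir-3096b, was not tested, since it uses the control samples of the contrast that chose the features. Of all 1363 features 4 (0.293%) had such opposite THC differences, and the mir-3096 hairpins were 2 of them. With r at 0.98 between both hairpins, which may share reads, these are not 2 independent cases. The snoRNA-like hairpin mir-5117, which had been named by its correlation with them over these same samples, was another. Its values were -0.32 for THC against control and 0.25 for THC with LPS against LPS. Within samples 28 to 39 the value for THC with LPS against LPS was 0.08 for mir-3096a and 0.17 for mir-3096b. Under CBD 5 features (0.367%) had opposite differences and none was a mir-3096 feature, while 12 (0.88%) were higher without overlap on both sides, mir-3096b among them.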

How the results depend on the processing

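The main model was not paired, because the labels use each sample number once and name no sets. The numbers do run in sets that hold 1 sample of each group. Chosen after seeing the data, a covariate for samples 22 to 27 or for the sets 22 to 27, 28 to 33 and 34 to 39 left each fold change as it was and called 0 features by limma in the 3 tested contrasts, with 69 and 67 at an unadjusted p under 0.05 in CBD with LPS against LPS, 41 and 36 in THC with LPS against LPS, and 43 and 41 between both. For mir-3096b in CBD with LPS against LPS the unadjusted p by limma was then 0.034 and 0.042, against 0.094 without a covariate. The adjusted p by limma was 0.885 and 0.974 with these covariates. CBD against control kept its direction for both hairpins under all other settings, from 0.64 to 0.98 on the log2 scale for mir-3096a and from 0.80 to 1.17 for mir-3096b, and without single samples from 0.72 to 1.01 and from 0.87 to 1.18. Scaling to miR-103-3p and miR-191-5p moved the median of all features in that contrast to -0.15. CBD by LPS moved to -0.37 (mir-3096a) and -0.46 (mir-3096b) with that scaling and to -0.82 and -0.94 in samples 28 to 39. Without single samples it ran from -0.79 to -0.50 and from -0.88 to -0.57. The lowest adjusted p over settings was 0.713 (mir-3096b) and 0.814 (mir-3096a) for CBD with LPS against LPS and 0.983 for both in THC with LPS against LPS. Without single samples mir-3096a and mir-3096b ran from 0.12 to 0.29 and from 0.21 to 0.35 (CBD), and from 0.14 to 0.31 and from 0.20 to 0.34 (THC). Features called in CBD with LPS against LPS rose from 0 to 2 with a filter of 1 read, 1 with filterByExpr and 1 with DESeq2, and in THC with LPS against LPS to 2 with the filter of 1 read. The causes were not tested.

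CBD with LPS against THC with LPS, whose values lay near 0, changed sign for mir-3096a at 0.043 (RLE), 0.011 (library size), 0.086 (reference miRNAs), 0.042 (DESeq2), 0.083 (samples 28 to 39) and 0.011 (composition covariate), and for mir-3096b at -0.0071 (edgeR) and -0.0011 (hairpins summed). It did so for miR-3096a-3p at -0.0032 (edgeR), -0.19 (samples 28 to 39) and -0.080 (covariate), and for miR-3096b-5p at 0.22 (samples 28 to 39). In samples 28 to 39 the sign also changed for miR-3096a-5p in CBD with LPS against LPS (-0.066) and miR-3096a-3p in THC with LPS against LPS (0.020). Without single samples the ranges that crossed 0 were -0.060 to 0.038 (mir-3096a), -0.026 to 0.040 (mir-3096b), -0.14 to 0.14 (miR-3096a-3p), -0.63 to 0.18 (miR-3096a-5p), -0.28 to 0.12 (miR-3096b-3p) and -0.45 to 0.18 (miR-3096b-5p) for CBD with LPS against THC with LPS, -0.070 to 0.46 for miR-3096a-5p in CBD with LPS against LPS, and -0.31 to 5.4e-06 for miR-3096b-3p in THC with LPS against LPS. The hairpin to mature log2 ratio ran from 0.34 to 0.62, 0.23 to 0.48 and -0.039 to 0.28 for CBD with LPS against LPS, THC with LPS against LPS and CBD with LPS against THC with LPS.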

Other observations

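The features whose levels ran most against those of the mir-3096 hairpins over the 18 samples were mir-712, mir-713 and mir-714, named after their values were seen. For mir-712 Pearson's r was -0.87 with mir-3096a and -0.82 with mir-3096b, for mir-713 -0.84 and -0.82, and for mir-714 -0.83 and -0.81, over samples that share libraries and scaling factors. In the CBD samples mir-712 lay between 77.0 and 211 CPM (122 ± 77.1; SD, n = 3) and in the control between 213 and 328 CPM (252 ± 66.3; SD, n = 3). The entry mir-713 rested on 179 reads in all, and mir-714 on 2935.

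Beside mir-3096a, mir-3096b and mir-5117, the hairpins mir-1900 and mir-3069 and the mature miR-106b-5p were also higher in each CBD sample than in the 15 others. Of these, mir-5117, mir-1900 and miR-106b-5p had been named by their correlation with the mir-3096 hairpins over these samples. The level of miR-106b-5p was 821 ± 72.9 CPM in the control and 1077 ± 73.5 CPM with CBD (SD, n = 3 each).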
